A study of Mus musculus with 9 samples.

Results

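The mitosis and spindle genes described here are 40 mouse genes whose products carry a cell from the entry into mitosis to the division of its cytoplasm. The genes were chosen as a list of names, with earlier results of these data known, and found by symbol among the 56398 features of the count table. They were measured by RNA sequencing in 9 libraries from BALB/c mice, 3 in each of 3 groups. Healthy colon makes up the sham group. Tumours grown from injected CT26 cells, a colon carcinoma line that comes from this same strain, make up the model group, whose mice received saline daily. The AC group holds tumours of the same cells from mice that received, once a day at 6 g/kg, Astragalus and Curcuma phaeocaulis Valeton in the proportion 2:1. A dose of 6 g/kg is recorded for the model group as well, and none for the sham group. The sources used here do not give the site of injection, the time of sampling or the age of the mice. Whether the 3 samples of each group are separate animals is not stated, and p-values then reflect the spread among these samples alone, which may be technical.

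Mitosis begins when cyclin B and Cdk1 form an active kinase, which Cdc25 phosphatases switch on and which Mastl protects by holding back the opposing phosphatase. Aurora and Polo kinases then build a spindle of microtubules, and the spindle checkpoint holds the cell until every kinetochore is attached. The anaphase-promoting complex, switched on by Cdc20, marks securin and cyclin B for destruction, which frees separase to cut the cohesin between sister chromatids. Most of these genes are transcribed late in the cycle, through MuvB complexes with B-Myb and FoxM1 that act at a promoter element named the cell cycle genes homology region (CHR), often beside CCAAT boxes bound by NF-Y. In a healthy colon dividing cells lie in the crypts and in lymphoid follicles.

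The start regions of 10 members are printed to show these elements and their place around the start. In Cenpf, Bub1, Ect2 and Anln the CHR match printed lies after the start. The first 8 are members with values in every library below and a CHR match, and the last 2 are Pttg1 and Birc5, which are among the 3 members with the smallest difference between tumour and colon and have no match. Each is read 5′ to 3′ from 120 bases before to 30 bases after a RefSeq transcription start (GRCm38.p6), and capitals mark CHR letters (TTTGAA or TTCGAA, or TTCAAA on the other strand) and CCAAT (or ATTGG on the other strand).
Top2a (chr11:99024160-99024309, minus strand): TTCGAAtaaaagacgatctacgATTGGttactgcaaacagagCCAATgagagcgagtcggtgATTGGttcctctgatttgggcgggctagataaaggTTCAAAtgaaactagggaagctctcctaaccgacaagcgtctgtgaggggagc
Cenpf (chr1:189688057-189688206, minus strand): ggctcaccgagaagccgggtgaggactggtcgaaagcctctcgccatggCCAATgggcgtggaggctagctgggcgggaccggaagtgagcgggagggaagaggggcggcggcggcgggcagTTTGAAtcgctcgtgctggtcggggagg
Kif11 (chr19:37376262-37376411, plus strand): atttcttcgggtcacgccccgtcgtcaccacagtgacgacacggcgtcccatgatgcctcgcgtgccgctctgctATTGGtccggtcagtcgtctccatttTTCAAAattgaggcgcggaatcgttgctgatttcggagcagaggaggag
Ube2c (chr2:164769809-164769958, plus strand): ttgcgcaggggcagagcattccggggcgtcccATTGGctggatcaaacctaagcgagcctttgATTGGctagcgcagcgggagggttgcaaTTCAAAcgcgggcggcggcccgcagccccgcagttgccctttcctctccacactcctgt
Bub1 (chr2:127831830-127831979, minus strand): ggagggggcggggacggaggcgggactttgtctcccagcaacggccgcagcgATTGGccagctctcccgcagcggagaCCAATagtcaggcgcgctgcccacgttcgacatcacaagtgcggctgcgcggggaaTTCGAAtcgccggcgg
Bub3 (chr7:131560250-131560399, plus strand): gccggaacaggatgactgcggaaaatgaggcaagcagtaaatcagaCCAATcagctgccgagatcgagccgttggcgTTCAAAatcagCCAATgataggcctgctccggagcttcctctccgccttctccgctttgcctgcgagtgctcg
Ect2 (chr3:27153825-27153974, minus strand): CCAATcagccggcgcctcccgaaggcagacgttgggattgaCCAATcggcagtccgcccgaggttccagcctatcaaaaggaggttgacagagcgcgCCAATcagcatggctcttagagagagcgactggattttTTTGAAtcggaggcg
Anln (chr9:22389177-22389326, minus strand): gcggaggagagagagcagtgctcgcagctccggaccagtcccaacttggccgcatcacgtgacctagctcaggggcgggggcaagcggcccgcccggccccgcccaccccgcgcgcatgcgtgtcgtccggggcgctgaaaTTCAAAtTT
Pttg1 (chr11:43425952-43426101, minus strand): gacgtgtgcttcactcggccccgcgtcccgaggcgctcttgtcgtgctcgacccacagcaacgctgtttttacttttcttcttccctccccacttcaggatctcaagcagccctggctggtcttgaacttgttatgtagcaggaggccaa
Birc5 (chr11:117849117-117849266, plus strand): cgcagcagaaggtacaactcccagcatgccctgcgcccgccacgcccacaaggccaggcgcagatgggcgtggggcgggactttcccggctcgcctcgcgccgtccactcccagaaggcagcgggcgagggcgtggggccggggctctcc
In Anln a second CHR match runs past the end of the window, and Bub3 and Ect2 have another RefSeq start that is not printed. The RefSeq starts of Pttg1 and Bub3 lie 270 and 148 bases inside the gene as GENCODE M21 annotates it, so their windows fall within the gene and do not show the sequence before its annotated 5′ end. The last 30 bases lie in a GENCODE M21 transcript of the same gene for each of them except Kif11, Anln and Birc5.

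A RefSeq promoter was matched for 33 of the 40 genes. The RefSeq starts of Kif2c, Cdca8 and Kif4 also lie inside the gene as annotated, by 3867, 2394 and 328 bases. Their CHR matches are counted here. Over 300 bases, from 250 before to 50 after the start, TTTGAA or TTCGAA on either strand stood in 25 of the 33 genes (75.8%), against 21.7% of the 27025 genes with a promoter and 6 of 22 genes (27.3%) of a list for DNA replication and S phase. A match centred within 50 bases of the start was found in 69.7% of the members and in 6.35% of all genes. CCAAT on either strand stood in 78.8% of the members, in 68.2% of the S phase genes and in 41.1% of all genes. The 8 members with a promoter and no CHR match were Birc5, Ccnb1, Cenpe, Mad2l1, Mastl, Nek2, Nuf2 and Pttg1. The median log2 fold change of model over sham was 2.74 for the 25 members with a match and 2.2 for these 8. Those without a match ran from 0.528 (Pttg1) to 3.97 (Mastl). For Pttg1 all the bases searched lie inside the annotated gene, so the sequence before its annotated 5′ end was not searched. A link between match and rise was not tested. A match is a string of letters and not a measured binding site.

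Library totals ran from 15690038 to 23476056 counts, and the 40 genes had between 28 and 15200 counts in any library. Levels are given in CPM, counts scaled to library size, on 1 scale for all 9 libraries, on which 3 counts are worth 0.112 to 0.241 CPM. Colon epithelium markers summed to between 42260 and 64450 CPM in sham and to between 189.6 and 1278 CPM in the tumours. Model 1 and AC 3 carried the most of them, with Epcam at 35.7 and 67.7 CPM against at most 0.952 CPM in the other 4 tumours. Sham 1 stood apart from sham 2 and sham 3. Its 8 B cell markers summed to 1082 CPM, against 136 and 71.4 CPM in the other sham libraries and 2.71 to 23.4 CPM in the tumours. Its 8 smooth muscle markers summed to 276 CPM, against 1713 and 1858 CPM.

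The mitosis and spindle genes were also higher in sham 1, in 39 of 40 cases the highest of the 3 sham libraries. Summed over the 40 genes, the level was 1338, 595 and 565 CPM in sham 1 to 3. The ratio of sham 1 to the mean of the other sham libraries had a median of 2.05 and ran from 0.839 for Plk1 to 4.52 for Nuf2, a subunit of the Ndc80 complex that grips microtubules. S phase genes followed the same order, at 972, 396 and 367 CPM. The sum of 6 crypt stem cell markers did not, at 1681, 1652 and 1754 CPM, but Prom1 alone made up 1663, 1628 and 1733 CPM of it. Of the low markers, Lgr5 was at 7.25, 6.34 and 6.60 CPM and Axin2 at 3.35, 10.5 and 8.51 CPM, highest and lowest in sham 1. The part of the B cell transcripts in the level of sham 1 was not tested. Results against sham are therefore given with and without this library.

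In model tumours all 40 genes were higher than in sham colon and all 40 passed the test (edgeR's quasi-likelihood test, Benjamini-Hochberg adjusted p from 2.5e-05 to 0.0354), where 36.8% of the 18228 genes tested were called higher. The 3 model libraries lay above the 3 sham libraries for each of the 40, as they did for 41.3% of all genes. The median difference was 2.79 on the log2 scale, a 6.91-fold rise, against 0.12 over all genes tested. Rises ran from 0.53 for Pttg1 to 5.52 for Anln, 38 were of at least 2-fold and 30 of at least 4-fold. Summed over the genes, the level was 5335, 5252 and 5651 CPM in model 1 to 3. The genes took 0.592% to 0.66% of all counts in a model library, and 0.04% to 0.107% in a sham library. In whole tissue a larger share of dividing cells and more RNA per cell cannot be told apart.

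**Figure D1:**
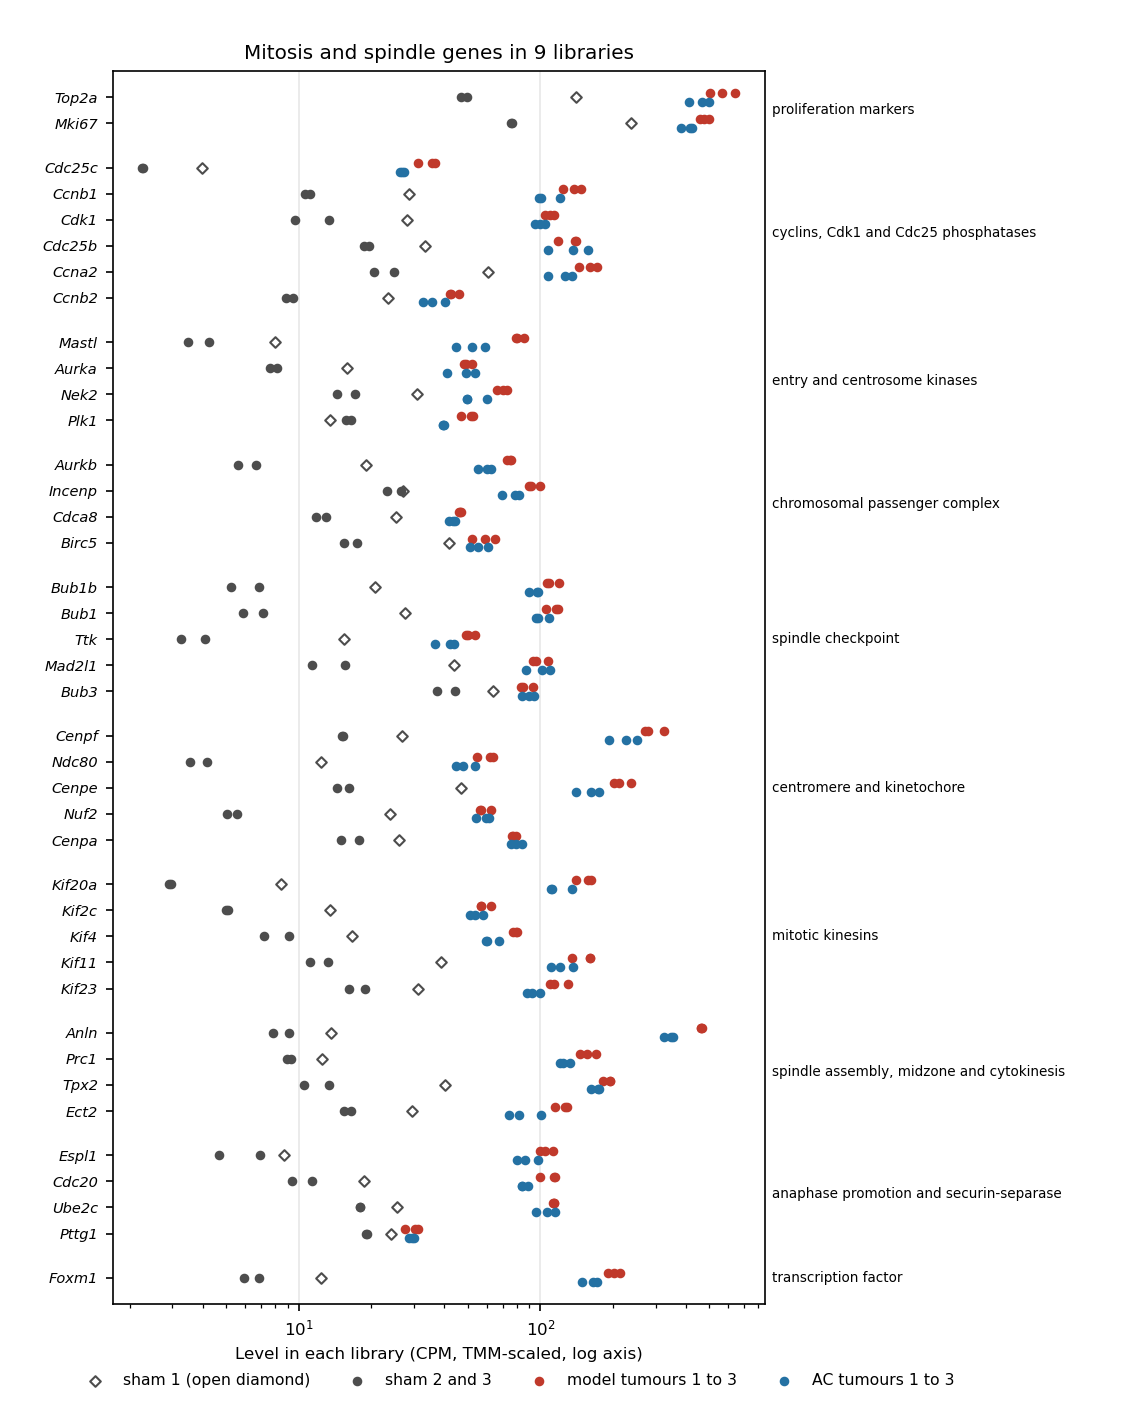
Level of each of the 40 genes in each library (CPM, log axis), grouped by role and ordered within a role by the rise in model tumours. Grey stands for sham, with sham 1 as an open diamond, red for model and blue for AC; the tumours lie to the right of all sham points for every gene, and sham 1 is the highest sham library for 39 of 40.

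The plot of levels by library shows a wide gap between tumour and colon for some roles and a narrow one for others. Among the proliferation markers, Top2a, the topoisomerase that untangles sister chromatids, was at 140, 47.0 and 49.9 CPM in sham 1 to 3 and at 566, 506 and 642 CPM in model 1 to 3. Sham 1 was high, yet every model library lay well above it. Top2a rose by 2.85 ± 0.49 (log2 fold change ± SE; edgeR adjusted p = 0.00216). Mki67, the gene of the Ki-67 antigen that coats mitotic chromosomes, was chosen after its values were seen and rose by 1.87 ± 0.50, from 130 ± 93.4 to 478 ± 20.8 CPM (mean ± SD, n = 3).

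All 6 genes of the cyclin, Cdk1 and Cdc25 group rose, by 1.65 (Ccnb2) to 3.61 (Cdc25c). Ccna2, the cyclin A of S phase and early mitosis, was at 60.9, 24.7 and 20.4 CPM in sham and at 161, 145 and 172 CPM in model. Its groups did not overlap, and it rose by 2.17 ± 0.45 (edgeR adjusted p = 0.0047). Cdk1 itself rose by 2.69 ± 0.42 and Ccnb1, a cyclin B, by 3.02 ± 0.44. Of the runs of 75 bases in Ccnb1, 35.2% recur in other genes, chiefly its pseudogene Ccnb1-ps, so its count may hold reads of that copy or have lost reads to it. Of the runs in Cdc25c, 21.4% recur in other genes, chiefly Gm3550. That gene overlaps 12.7% of the Cdc25c exon bases, on the opposite strand. The exons of Ccna2 overlap Exosc9 over 12.5% of their bases.

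The 4 kinases of mitotic entry and the centrosome rose by 1.75 to 3.97. Nek2, which separates the centrosomes, was at 30.9, 17.0 and 14.4 CPM in sham and at 70.2, 73.0 and 66.3 CPM in model. Mastl (chr2:23115606-23156024, minus strand, GENCODE M21 on GRCm38), the Greatwall kinase, was at 7.95, 4.25 and 3.48 CPM in sham and at 80.0, 85.7 and 79.4 CPM in model. Mastl thus started among the lowest members and rose by 3.97 ± 0.36 (edgeR adjusted p = 0.000144), while Nek2 rose by 1.75 ± 0.32. Plk1, the Polo kinase, was the 1 member not highest in sham 1, at 13.5, 15.7 and 16.4 CPM in sham against 51.8, 52.5 and 47.2 CPM in model.

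The chromosomal passenger complex, which corrects faulty attachments and later guides cleavage, rose by 1.24 (Birc5) to 2.83 (Aurkb, its kinase). Incenp, its scaffold, was at 27.04, 26.49 and 23.12 CPM in sham and at 89.4, 99.6 and 91.3 CPM in model. The sham libraries lay close together for this gene, and the rise of 1.88 had an SE of 0.14. Birc5, or survivin, was at 41.7, 15.3 and 17.4 CPM in sham and at 59.2, 52.0 and 64.8 CPM in model. Sham 1 came close to the tumours here, and the rise of 1.24 ± 0.42 (edgeR adjusted p = 0.0336) was 1.88 without that library. With sham 1 kept, the call for Birc5 was lost when any other single library was left out.

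The 5 spindle checkpoint genes rose by 0.85 (Bub3) to 3.34 (Bub1b). Bub1, a checkpoint kinase at the kinetochore, was at 27.6, 5.86 and 7.09 CPM in sham and at 106, 119 and 116 CPM in model. Bub3, its partner protein, was at 63.7, 44.4 and 37.2 CPM in sham and at 82.8, 84.7 and 93.3 CPM in model. Bub1 rose by 3.06 ± 0.63, while Bub3, the highest of the group in colon, rose by 0.85 ± 0.23 (edgeR adjusted p = 0.0151). Without sham 2 the adjusted p for Bub3 was 0.0529.

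The 5 centromere and kinetochore genes rose by 2.00 (Cenpa, the histone variant that marks centromeres) to 3.94 (Cenpf). Cenpf, a large protein of the outer kinetochore, was at 26.8, 15.2 and 15.0 CPM in sham and at 271, 279 and 325 CPM in model. Every model library lay far above every sham library, with an edgeR adjusted p of 7.82e-05.

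The 5 mitotic kinesins, among them motors that push spindle poles apart or move along the midzone, rose by 2.42 (Kif23) to 5.01 (Kif20a). Kif11, which slides antiparallel microtubules, was at 39.0, 11.2 and 13.3 CPM in sham and at 135, 161 and 160 CPM in model. Kif20a, a motor of the cleavage furrow, was at 8.42, 2.97 and 2.91 CPM in sham and at 163, 141 and 157 CPM in model. Kif11 rose by 2.84 ± 0.52 and Kif20a by 5.01 ± 0.49 (edgeR adjusted p = 0.000211). Of the exon bases of Kif20a, 29.3% overlap Cdc23 on the opposite strand, and the exons of Kif4 overlap Pdzd11 over 15.1%. No source used here gives the strand setting of the counting, so these counts are uncertain.

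The genes of spindle assembly, the midzone and cytokinesis had a median rise of 3.54, the highest of the roles with more than 1 gene. Anln (chr9:22332012-22389188, minus strand, GENCODE M21 on GRCm38), the anillin that ties actin to the cleavage furrow, was at 13.6, 7.79 and 9.08 CPM in sham and at 466, 463 and 464 CPM in model. The model libraries were nearly equal, and Anln rose by 5.52 ± 0.29 (edgeR adjusted p = 2.68e-05), the largest rise of the 40. Ect2, the exchange factor that activates RhoA at the furrow, was at 29.5, 16.5 and 15.3 CPM in sham and at 127, 115 and 129 CPM in model, a rise of 2.60 ± 0.30.

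The 4 genes of anaphase promotion rose by 0.53 (Pttg1) to 3.98 (Espl1). Ube2c, an E2 enzyme of the anaphase-promoting complex, was at 25.48, 17.98 and 17.87 CPM in sham and at 114, 113 and 114 CPM in model. Its exons overlap Tnnc2 over 22.8% of their bases. Pttg1 (chr11:43420250-43426251, minus strand), or securin, was at 24.1, 18.9 and 19.2 CPM in sham and at 30.4, 27.4 and 31.2 CPM in model. Pttg1 had the smallest rise, 0.53 ± 0.18 (edgeR adjusted p = 0.0354), and leaving out any single library except sham 1 ended its call. Without sham 1 its rise was 0.67, with an edgeR adjusted p of 0.000872. Espl1, the separase that securin inhibits, rose by 3.98 ± 0.27 and Cdc20 by 3.07 ± 0.31.

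Foxm1 (chr6:128362967-128376146, plus strand), the transcription factor of this gene program, was at 12.4, 6.82 and 5.96 CPM in sham and at 215, 201 and 191 CPM in model. The groups stood far apart, and Foxm1 rose by 4.60 ± 0.35 (edgeR adjusted p = 7.46e-05), the third largest rise after Anln and Kif20a.

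The size of the rises over sham moved with sham 1, while the count of genes called was 40 with and without it. Without that library the median rise was 3.47 (11.1-fold) in place of 2.79, and the rises ran from 0.67 to 5.82 with the highest edgeR adjusted p at 0.000872. Against sham 1 alone, the lowest tumour library of each gene was 1.14 times (Pttg1) to 24.0 times (Anln) as high, with a median of 2.97. The members also varied more among colon than among tumour libraries: the median coefficient of variation was 45.7% in sham, 6.07% in model and 7.76% in AC.

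Levels between genes can be compared only per length, as FPKM (counts divided by gene length and library total). By mean FPKM the highest members in sham were Mki67 at 9.89, Pttg1 at 7.76 and Ccnb2 at 6.90, and the lowest was Espl1 at 0.577. In model the highest were Top2a at 72.7, Cdc20 at 67.1, Anln at 58.7 and Mki67 at 54.4, and the lowest was Cdca8 at 10.3. Anln moved from place 37 of 40 in sham to place 3 in model, and Kif20a from 34 to 7. Pttg1 moved the other way, from place 2 to place 29. The median FPKM over the 40 genes was 2.57 in sham, 25.9 in model and 21.3 in AC. The gene length behind the FPKM differed by more than 1% from GENCODE M21 for Cdc25c, Incenp, Kif11 and Kif20a.

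AC tumours were likewise above colon for all 40 genes. All 40 were called higher than sham (edgeR, adjusted p from 4.59e-05 to 0.0444), where 35.5% of 17832 genes tested were, and all 40 had groups that did not overlap, where 40.5% of all genes did so upwards. The median rise was 2.50 (5.64-fold), against 0.10 over all genes, and 3.12 without sham 1. The range was again bounded by Pttg1 at 0.50 and Anln at 5.07. This comparison uses the same 3 sham libraries as the one before, so the pair are not independent. Side by side, the model and AC rises were 5.01 and 4.63 for Kif20a, 4.60 and 4.26 for Foxm1, 3.97 and 3.31 for Mastl, 2.85 and 2.52 for Top2a, 1.24 and 1.15 for Birc5, and 0.85 and 0.88 for Bub3. The calls for Pttg1, Birc5, Mki67 and Ccnb2 in AC were lost when any single library other than sham 1 was left out.

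**Figure D2:**
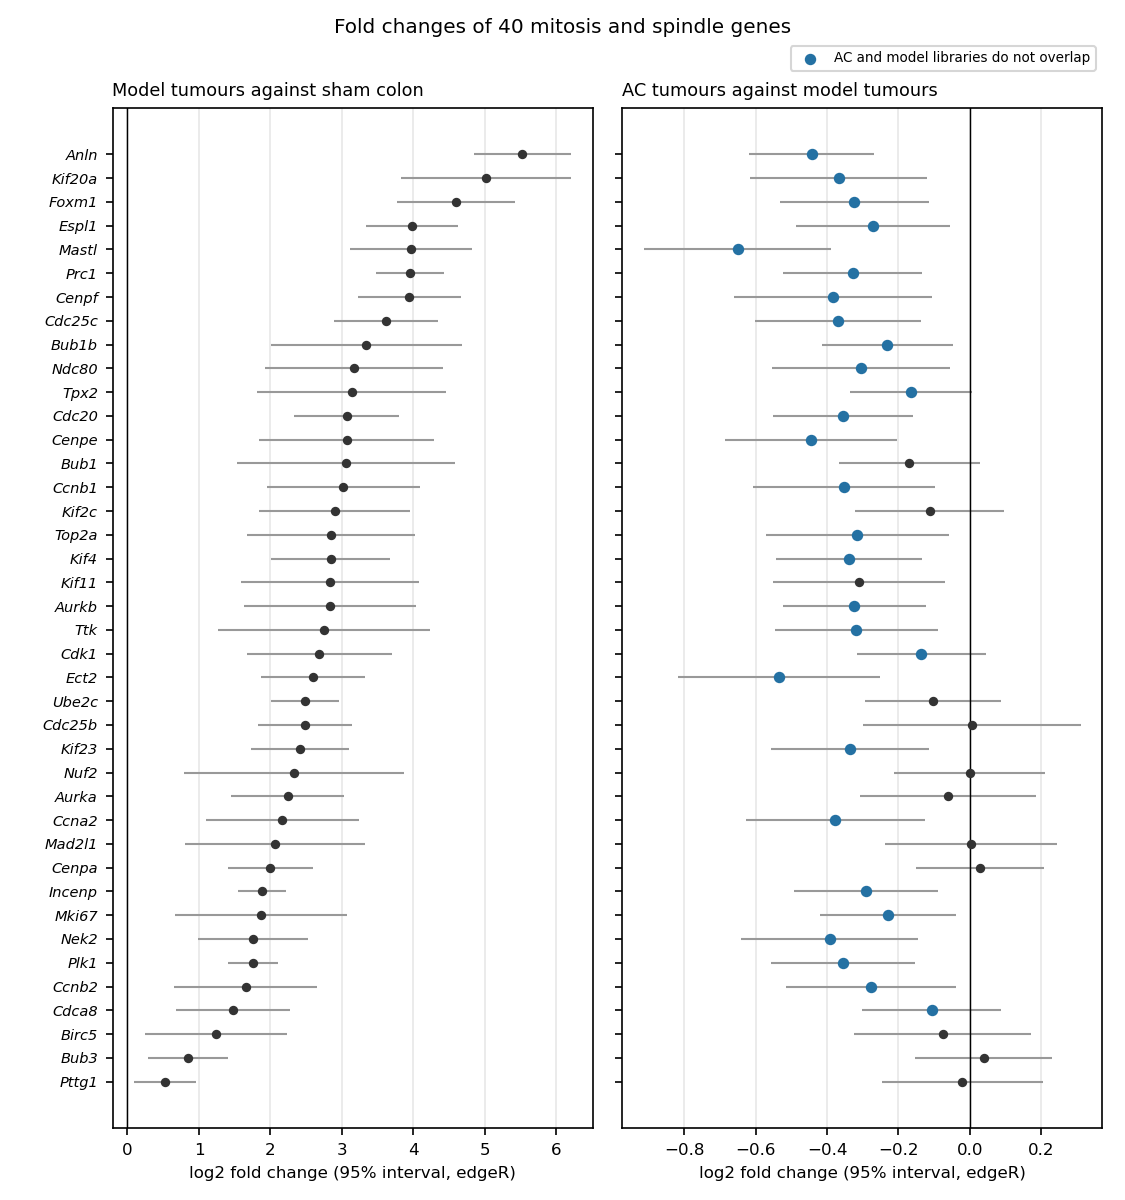
Log2 fold change of each gene (edgeR) with a 95% interval computed from the edgeR test. Model against sham is on the left and AC against model on the right, with genes ordered by the left panel. All intervals on the left lie above 0; on the right the values lie between -0.65 and 0.04, and blue points mark the 28 genes whose AC and model libraries do not overlap.

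Between AC and model tumours the differences were small, as the plot of fold changes shows, and none of the 40 genes passed the test. The count of calls was 0 of 40 members and 0 of 17137 genes (0%) by edgeR, and the adjusted p of the members ran from 0.143 to 0.999. At an unadjusted p under 0.05 there were 26 of the 40 members, and 13.1% of all genes. Of the members, 36 were below 0 and 4 above, or 6 above without scaling factors, where 51.4% of all genes were above 0. The median difference was -0.31 (0.808-fold) against 0.01 over all genes, and 28 had every AC library below every model library. Over all genes 9.99% did so downwards and 9.06% upwards, and no member did so upwards. Summed over the 40 genes, the level was 4611, 4246 and 4524 CPM in AC 1 to 3, below 5252 CPM in the lowest model library.

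The smallest p-values among the members were those of Anln, Mastl and Ect2. Anln was at 353, 326 and 346 CPM in AC, against 463 to 466 CPM in model. Mastl was at 52.0, 44.9 and 59.1 CPM in AC, against 79.4 to 85.7 CPM in model. Ect2 was at 81.4, 74.0 and 100 CPM in AC, against 115 to 129 CPM in model. For each of these the highest AC library lay below the lowest model library. The difference was -0.44 ± 0.08 for Anln, -0.65 ± 0.12 for Mastl and -0.54 ± 0.12 for Ect2, with edgeR adjusted p of 0.143, 0.146 and 0.24.

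The share of genes that were lower with no overlap ran from 40% to 100% over the roles, beside 9.99% of all genes. A role holds only 1 to 6 genes, and differences between roles were not tested. All 4 genes of spindle assembly, the midzone and cytokinesis, both proliferation markers and 5 of 6 genes of the cyclin, Cdk1 and Cdc25 group were lower with no overlap. Top2a was at 498, 412 and 468 CPM in AC and Ccna2 at 126, 108 and 135 CPM. Both lay below their model libraries throughout, by 0.804-fold and 0.770-fold, with no call. Cdc25b, the exception in its group, was at 157, 137 and 107 CPM in AC against 118, 141 and 140 CPM in model, with a coefficient of variation in AC of 18.7%, the highest of the 40.

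Of the kinases, Nek2 was at 49.5, 49.8 and 60.3 CPM in AC, below all model libraries, as were Plk1 and Mastl but not Aurka. Incenp was at 78.7, 81.3 and 69.7 CPM and did not overlap the model libraries, while Birc5 at 60.8, 55.2 and 51.2 CPM did overlap them. Foxm1 was at 148, 172 and 166 CPM, below its model libraries, with a difference of -0.32 ± 0.09 and an edgeR adjusted p of 0.261.

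Of the checkpoint genes 2 of 5 (Bub1b and Ttk) were lower with no overlap, beside 9.99% of all genes. Bub1 was at 109, 96.0 and 97.9 CPM in AC and Bub3 at 94.5, 89.5 and 84.3 CPM, and both overlapped the model libraries. For Bub3 the difference was 0.04, with a 95% interval from -0.15 to 0.23. Cenpf was at 227, 192 and 252 CPM, below its model libraries, and Cenpe and Ndc80 were so too, while Cenpa and Nuf2 were not. Kif20a was at 112, 111 and 135 CPM, below its model libraries, but Kif11 at 137, 111 and 120 CPM overlapped them through AC 1. Ube2c was at 115, 107 and 96.0 CPM and Pttg1 at 29.9, 28.5 and 29.4 CPM, and these overlapped the model libraries, while Cdc20 and Espl1 did not. Over all 40 genes the 95% intervals reached no lower than -0.91 (Mastl) and no higher than 0.31 (Cdc25b).

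The count of calls between AC and model moved with the tool and with the libraries used. DESeq2 called 4 of the 40 genes lower, Mastl, Anln, Ect2 and Cenpe, beside 0.645% of all genes. Without a filter on low counts edgeR called 3 lower, beside 0.248% of all genes, and without AC 3 it called 7 lower, Ccnb1, Nek2, Mastl, Kif20a, Kif4, Anln and Ect2, beside 2.36% of all genes. AC 3 and model 1 were the tumours with epithelial transcripts. Without both of them 1 gene was called lower, Mastl, with an edgeR adjusted p of 0.0432, beside 0.467% of all genes, and 30 of 40 had groups that did not overlap, where 23.7% of all genes did so downwards. The summed levels of 3 marker lists were also lower in AC with no overlap. The 8 fibroblast markers came to 2307, 1826 and 1977 CPM in model and to 1269, 1290 and 1754 CPM in AC. The 8 T and NK cell markers came to 32.1, 29.3 and 36.6 CPM in model and to 23.2, 18.6 and 25.9 CPM in AC. The 8 B cell markers came to 23.4, 5.97 and 7.32 CPM in model and to 2.71, 3.88 and 5.10 CPM in AC. Gene by gene, 4 of 8 fibroblast and 2 of 8 T and NK cell markers were lower with no overlap, beside 9.99% of all genes. Of the B cell markers only 4 had enough counts to be tested, and 1 of these was lower with no overlap. That gene was Pax5, at 3.28 to 5.03 CPM in model and 1.22 to 1.31 CPM in AC. The 8 macrophage markers overlapped, at 771 to 1032 CPM in model and 863 to 1263 CPM in AC. The part of these cell types in the lower levels of mitosis genes was not tested.

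**Figure D3:**
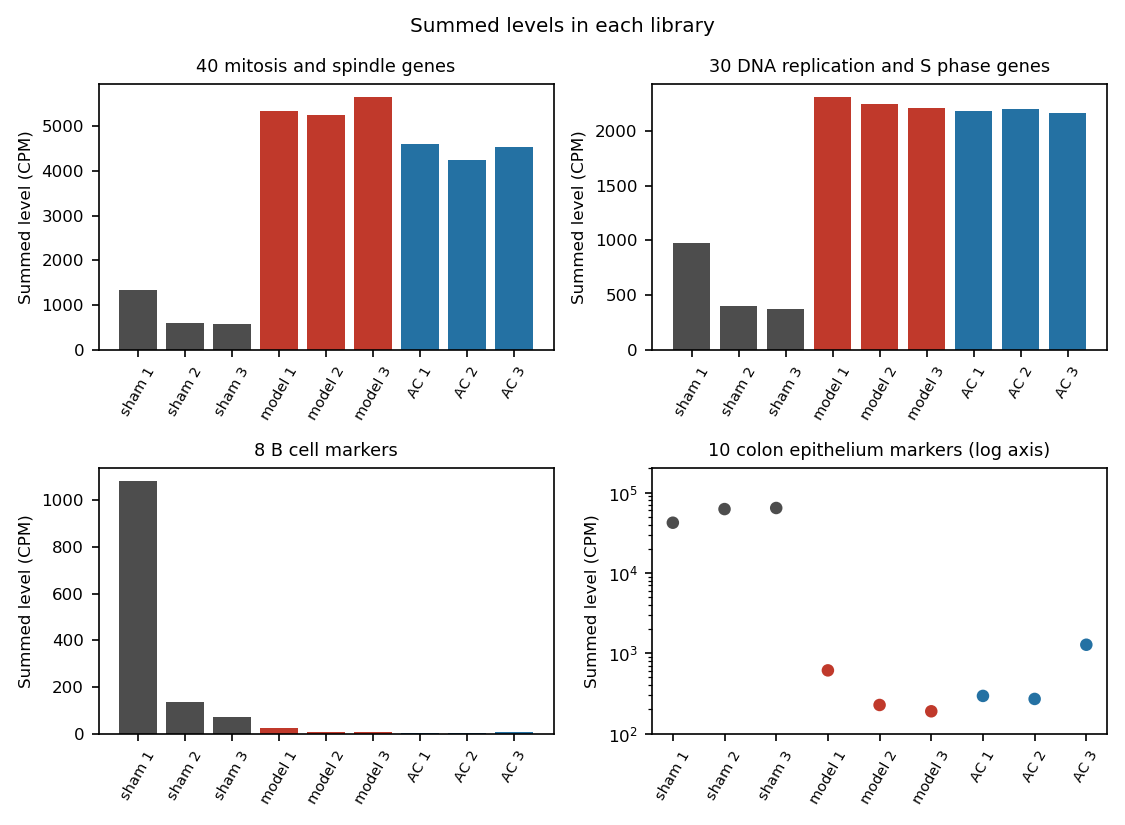
Summed level (CPM) in each of the 9 libraries of the 40 mitosis and spindle genes, 30 S phase genes, 8 B cell markers and, on a log axis, 10 colon epithelium markers. AC libraries (blue) are below model libraries (red) for the mitosis genes, at most 4611 against at least 5252 CPM, and sham 1 is the highest sham library for the first 3 panels and the lowest for the fourth.

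S phase genes serve as the nearest comparison, since dividing cells pass through both phases. Of the 30 genes of DNA replication and S phase, 24 were called higher in model than in sham and none lower. Over all genes tested 36.8% were called higher and 32.9% lower. The median rise of the 30 genes was 1.83. The plot of summed levels shows that they lay close together in the tumours, at 2310, 2251 and 2209 CPM in model and 2180, 2204 and 2169 CPM in AC. Between AC and model the median difference was -0.04, and 1 of 30 genes was lower with groups that did not overlap, beside 28 of 40 mitosis genes and 9.99% of all genes. The difference between these lists was not tested. Tk1, the thymidine kinase of nucleotide salvage, rose by 1.72 in model over sham and differed by -0.23 between AC and model. Cdt1, which loads the replicative helicase, rose by 2.51 and differed by -0.06.

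Other genes of the division machinery moved in the same direction against colon, in most but not all lists. Counts of genes that rose or fell are of genes called by the test, and of all genes tested 36.8% were called higher. Of 35 other spindle and cytokinesis genes 32 rose in model and none fell, among them Troap, a spindle protein, by 5.20 and Dlgap5, a microtubule binder of the Aurora A pathway, by 2.67. Of 35 other kinetochore and centromere genes 30 rose, among them Hjurp, the chaperone that deposits Cenpa, by 2.66 and Cenpt, a centromere protein, by 2.55. Of 19 condensin and cohesin genes 15 rose, with Ncapd3 at 2.23 and Ncapd2 at 3.17, and Wapl, which releases cohesin, fell by 0.72. Of 17 centriole and centrosome genes 12 rose, with Cdk5rap2 at 2.24 and Cep152 at 1.67.

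The regulators above the spindle went both ways, as did all genes tested, of which 36.8% were called higher and 32.9% lower. Of 17 subunits and partners of the anaphase-promoting complex 10 rose and 4 fell, with Anapc5 at 1.96 and Anapc4 at 1.90 against Anapc13 at -1.84 and Anapc16 at -0.62. Of 13 genes of the mitotic entry switch 6 rose and 3 fell. Pkmyt1, which inhibits Cdk1, rose by 1.88 and Bora, an activator of Plk1, by 1.24. Cdc25a fell by 1.75, whereas the members Cdc25b and Cdc25c rose by 2.48 and 3.61. Ppp2r2a, a subunit of the phosphatase that Mastl holds back, fell by 0.45. Of 19 genes of the MuvB, B-Myb and E2F group 10 rose and 3 fell, with E2f1 at 3.33, E2f8 at 3.87, Rb1 at -1.78 and E2f5 at -1.39. Of 9 meiotic and testis relatives of these genes none had enough counts to be tested, and together they summed to 0.554 to 2.97 CPM.

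**Figure D4:**
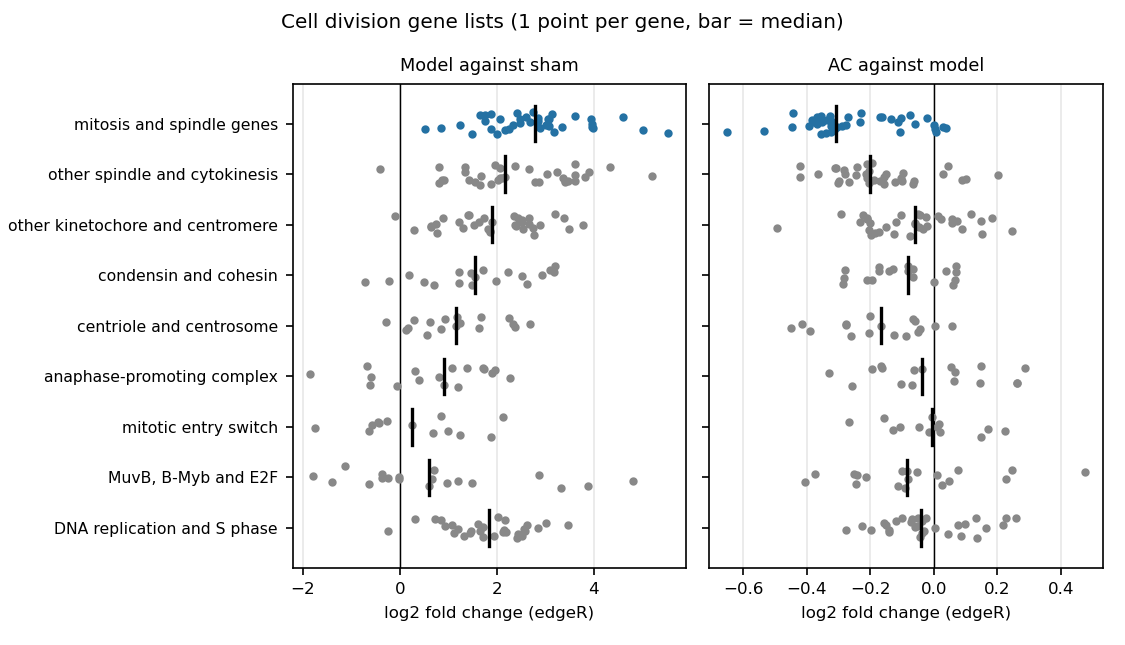
Log2 fold change (edgeR) of each gene in 9 lists of cell division genes, 1 point per gene with the median as a bar, for model against sham and AC against model. On the right the median of the 40 mitosis and spindle genes is at -0.31, that of other spindle and cytokinesis genes at -0.20 and that of S phase genes at -0.04.

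Between AC and model no gene of these lists passed the test, as the plot of lists shows. The share of genes that were lower with groups that did not overlap was 18 of 35 for the other spindle and cytokinesis genes, 5 of 35 for the other kinetochore and centromere genes, 5 of 19 for condensin and cohesin, 3 of 17 each for the anaphase-promoting complex and the centrosome list, 5 of 19 for the MuvB, B-Myb and E2F group and 0 of 13 for the entry switch. Over all genes 9.99% did so, and the shares of the kinetochore list (14.3%) and of the 2 lists of 17 genes (17.6%) lie near that. Their medians ran from -0.20 for the other spindle genes, through -0.17 for the centrosome list and -0.08 for condensin and cohesin, to -0.01 for the entry switch. E2f1 and E2f8, which activate and restrain S phase genes, differed by -0.09 and -0.08, and Foxm1 by -0.32.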

How the data were processed

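Per the labels' protocols, Trizol was used for the RNA and a VAHTS Universal V6 kit for the libraries. The authors deposited raw counts for each gene, with featureCounts 1.5.0-p3 named in the submitters' processing notes, and FPKM values that equal count over gene length and library total. Those notes name mm9, but the gene lengths implied by the tables lay within 1% of GENCODE M21 (GRCm38) for 36 of the 40 genes, and symbols come from that annotation, which paired 54409 of 54446 Ensembl identifiers. Aligner, read length and strand setting: not given in the sources used here.

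Counts were tested as deposited, in R 4.3.3, with edgeR 4.0.16 (TMM factors, filterByExpr, robust quasi-likelihood fit on the 6 libraries of each comparison, Benjamini-Hochberg over all genes tested, threshold 0.05); the method was tested on simulated data. A gene was called when its adjusted p was under the threshold. All 40 genes passed the filter on low counts in each comparison. Levels are CPM with TMM factors over 9 libraries. FPKM served only to compare genes. Groups do not overlap when every library of one is above every library of the other. DESeq2 1.42.0, other scalings, no filter, 1 fit of all libraries, a replicate block and leaving out libraries were tried.

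Members and lists were chosen with earlier results of these data known. Values in every library are given for the member with the highest mean CPM of each role, the 3 with the largest and the 3 with the smallest difference in model against sham, and the 3 with the smallest p in AC against model. Of the other lists up to 2 genes per direction with the smallest adjusted p are named; members named beside these were chosen after their values were seen. Promoters are from RefSeq (GRCm38.p6), and protein sequences were not used here. Intervals and floors cover counting error and the spread between these libraries only.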

Additional observations from a re-analysis of the deposited data

How the results depend on the processing

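Against sham, 37 to 40 of the 40 genes in model and 36 to 40 in AC were called higher under all alternatives run. The median in model over sham was 3.47 without sham 1, and ran from 2.41 to 3.47 when 1 library was left out. Without scaling factors the median of all genes moved from 0.12 to 0.724 in model and from 0.10 to 0.747 in AC over sham, and the share of calls that were higher moved from 52.8% to 67.3% and from 52.1% to 68.2%; the medians of the 40 genes were then 3.38 and 3.13. Counted as 1 gene under 1 alternative, 13 calls in model and 24 in AC over sham were lost, and none changed sign. Between AC and model the count of calls, all lower, was 0 with TMM, RLE or no factors and in 1 fit of all libraries, 4 by DESeq2 (289 of all genes called), 3 without a filter (105 of all genes), 1 without model 1 and AC 3 (94 of all genes) and from 0 to 7 when 1 library was left out, with 7 reached without AC 3 (569 of all genes). Leaving out 1 library moved the median between -0.32 and -0.245, the latter without AC 2, and it was -0.266 without model 3; the cause was not tested. With groups defined by no overlap, 28 genes were lower with RLE factors, 23 without factors and 29 with TMM over the 6 tumours, alternatives chosen after seeing the data. Over all genes, in the same order, 9.82%, 7.77% and 9.59% were lower in this way and 9.23%, 11.5% and 9.47% higher. Genes near 0 changed sign, none with a call. Nuf2 was at 0.0305 without scaling, 0.000353 by DESeq2, 0.000804 in 1 fit of all libraries, and between -0.0284 and 0.0499 when 1 library was left out. Pttg1 was at 0.0103 without scaling and between -0.0747 and 0.0153 with 1 library out. With 1 library out Cdc25b lay between -0.12 and 0.131, Mad2l1 between -0.0654 and 0.09, Cenpa between -0.00559 and 0.0541, Birc5 between -0.156 and 0.000306 and Aurka between -0.145 and 0.0283. Without model 1 and AC 3, Mad2l1 was at -0.0409 and Aurka at 0.00864. The labels do not say that replicate numbers pair the samples. On deviations from group means, the correlations of same-numbered model and AC libraries were -0.528, 0.435 and -0.312. Model 1 went with AC 3 at 0.654, and these are the tumours with epithelial transcripts. Such correlations cannot decide whether the samples were paired. With the replicate number as a block, 39 genes were called in model and 39 in AC over sham, Pttg1 being lost in both, and 0 between AC and model, where Cdc25b stood at -0.00479. With 3 libraries a group, the 95% intervals between AC and model had a median half-width of 0.22 on the log2 scale before adjustment, and the largest difference, -0.65 for Mastl, was not called.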
